A study of Mus musculus with 3 samples.

Results

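The genes examined were the IGF binding proteins *Igfbp1* to *Igfbp7* together with the ligand *Igf1* and the receptors *Igf1r* and *Insr*. They were chosen by gene name in GENCODE M21, and all 10 were found among the 55401 genes listed. RNA-Seq counts came from 3 libraries of maxillary processes dissected at E10.5 from Wnt1cre; Rosa26Dlx2/- embryos, called OE replicates 1, 2 and 3 here. In these embryos Cre under *Wnt1* control opens a CAG-LSL-Dlx2-3xFlag allele at *Rosa26*, so *Dlx2* is overexpressed in cells of neural crest descent. The libraries were made from complete maxillary processes and not from these cells alone. All 3 libraries carried this genotype. The wild-type libraries of the experiment were not analysed here, so every difference described lies between libraries of 1 genotype, and an effect of *Dlx2* cannot be read from them. The methods of the study give 3 independent RNA samples per genotype. Neither they nor the labels say whether each came from a single embryo.

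IGF-I and IGF-II are secreted growth factors that signal through the IGF1 receptor, a tyrosine kinase that is closely related to the insulin receptor. In tissue fluid most of the ligand is held by IGF binding proteins, which can carry it, keep it from the receptor or release it when proteases cut them. IGFBP7 binds IGFs only weakly and binds insulin. In the embryo, IGF signalling is known for its part in growth, and several binding proteins mark particular tissues.

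Counts on genes were 36544554, 35351031 and 40057435 in replicates 1, 2 and 3. Levels are given as counts per 1000000 counts on genes after TMM scaling (CPM), and levels of different genes are compared as CPM per 1000 exonic bases (RPKM). *Dlx2* itself was at 235.5, 201 and 183 CPM, a mean of 206 ± 26.7 (SD, n = 3). The labelled tissue carried its mesenchymal markers, with 7 of 7 genes (*Prrx1*, *Prrx2*, *Twist1*, *Pdgfra*, *Msx1*, *Alx1* and *Alx4*) detected and summed levels of 1553, 1626 and 1713 CPM. The libraries were not alike in other cell markers. Summed levels of 9 neuronal genes were 273, 24.3 and 35.9 CPM, those of 6 epithelial genes 341, 223 and 224 CPM, those of 5 eye and forebrain genes 20.96, 140 and 131 CPM, and those of 6 pigment cell genes 4.98, 33.7 and 155 CPM, with *Mlana* at no more than 3 counts. The epithelial genes did not move together. *Epcam*, *Cdh1* and *Trp63* were lower in replicate 3 than in replicate 2, and *Krt8*, *Krt18* and *Krt5* were higher. *Xist*, the RNA of the inactive X chromosome, was at 672 CPM in replicate 1 and under 1 CPM in the others, while 4 Y-linked genes summed to 0, 146 and 109 CPM. The libraries also differed by transcript length. Genes with up to 2000 exonic bases had a median log2 ratio, each library against the mean of the other 2, of -0.45, -0.16 and 0.64 in replicates 1, 2 and 3, and genes over 8000 bases had 0.40, 0.16 and -0.56.

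Per exonic base, *Igfbp4* and *Igfbp2* were far above all other members, *Igfbp5* and *Igfbp3* followed, and *Igfbp7*, *Igfbp6* and *Igfbp1* were low. The mean levels were 232 ± 34.7 RPKM for *Igfbp4*, 186 ± 69.5 for *Igfbp2*, 41.5 ± 20.6 for *Igfbp5* and 15.2 ± 0.464 for *Igfbp3* (SD, n = 3). The receptor *Igf1r* was at 6.61 ± 1.14 RPKM, the ligand *Igf1* at 5.36 ± 2.72 and *Insr* at 2.56 ± 0.540. At the low end were *Igfbp7* (0.665 ± 0.322 RPKM), *Igfbp6* (0.186 ± 0.109) and *Igfbp1* (0.0229 ± 0.0199). Of the 9 pairs of neighbours in this order, 7 had ranges over the 3 libraries that did not overlap. The ranges of *Igfbp4* and *Igfbp2* overlapped, although *Igfbp4* was the higher in 3 of 3 libraries. Those of *Igf1r* and *Igf1* also overlapped, with *Igf1r* the higher in 2 of 3. The order is given as a description, with no test. It also depends on the length used. Per coding base, *Igfbp4* was further ahead at 1233 ± 184 RPKM, while *Igfbp2* (375 ± 140 RPKM) and *Igfbp5* (306 ± 152 RPKM) lay close together, all SD with n = 3. Per base of the longest transcript, *Igfbp2* was above *Igfbp4* in replicate 3, at 376 against 312 RPKM, and below it in replicates 1 and 2.

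**Figure D1:**
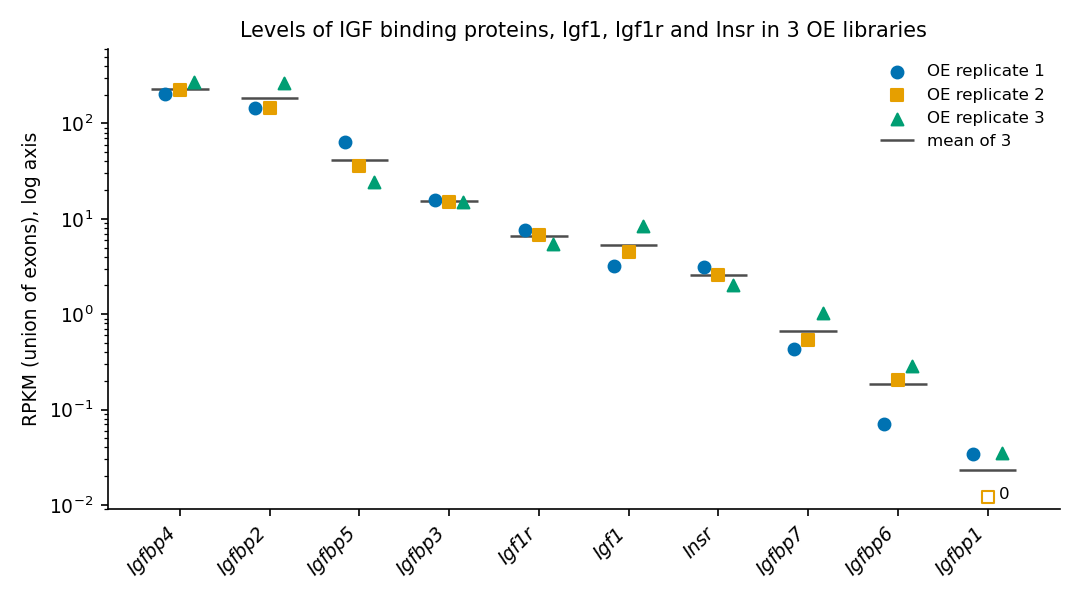
RPKM of the 10 genes on a log axis, with 1 point per OE library and a line at the mean of 3; the open square is *Igfbp1* in replicate 2, which had 0 counts and is drawn at the axis foot. *Igfbp4* and *Igfbp2* lie above 100 RPKM in every library, and *Igfbp7*, *Igfbp6* and *Igfbp1* lie at or below 1.03.

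The sequences before the annotated starts of the 3 most abundant binding proteins and of *Igf1* are shown because these genes include the most abundant members per exonic base and, in *Igf1* and *Igfbp5*, the tested members with the largest ratios between libraries. They are the 250 bases upstream of the RefSeq start in GRCm38.p6, 5′ to 3′ on the gene's own strand. Capitals mark matches to TAATTA, a core recognised by homeodomain proteins, to TATAAA, the TATA box, or to CACGTG, an E-box of the MYC and MNT family. The positions are chr11:99040994-99041243, plus strand, for *Igfbp4*, chr1:72824230-72824479, plus strand, for *Igfbp2*, chr1:72874866-72875115, minus strand, for *Igfbp5*, and chr10:87860861-87861110, plus strand, for *Igf1*. The RefSeq start of *Igf1*, at 87861111, lies inside the GENCODE M21 gene, which begins at 87858265. Bases before that GENCODE start were not searched.
Igfbp4: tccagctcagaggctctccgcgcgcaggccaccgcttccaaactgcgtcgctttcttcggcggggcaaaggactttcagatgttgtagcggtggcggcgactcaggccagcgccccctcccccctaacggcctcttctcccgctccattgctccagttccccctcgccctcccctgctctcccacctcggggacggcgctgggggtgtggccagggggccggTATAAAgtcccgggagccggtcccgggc
Igfbp2: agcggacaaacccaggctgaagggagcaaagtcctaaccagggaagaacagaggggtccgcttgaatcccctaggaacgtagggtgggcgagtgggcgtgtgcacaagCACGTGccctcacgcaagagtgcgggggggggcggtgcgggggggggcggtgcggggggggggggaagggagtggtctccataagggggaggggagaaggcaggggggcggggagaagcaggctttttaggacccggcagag
Igfbp5: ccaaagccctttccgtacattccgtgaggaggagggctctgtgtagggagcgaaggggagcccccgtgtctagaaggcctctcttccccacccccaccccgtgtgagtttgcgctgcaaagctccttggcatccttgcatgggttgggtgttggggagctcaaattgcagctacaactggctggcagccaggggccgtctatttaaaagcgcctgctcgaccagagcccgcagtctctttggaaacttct
Igf1: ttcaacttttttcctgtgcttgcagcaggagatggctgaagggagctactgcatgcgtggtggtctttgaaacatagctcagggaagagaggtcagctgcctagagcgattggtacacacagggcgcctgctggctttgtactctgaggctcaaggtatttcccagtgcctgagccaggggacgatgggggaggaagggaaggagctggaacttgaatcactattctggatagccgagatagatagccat

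RefSeq windows of 300 bases, from 250 before to 50 after a start, were found for 9 of the 10 genes, with 2 windows for *Igfbp2* and none for *Insr*. Both strands were searched. *Igfbp4* held TATAAA at position -28 from the start and *Igfbp6* held it on the reverse strand at -148, against 13.6% of all 32851 windows with a match. CACGTG was found at -142 in the first *Igfbp2* window only, and 7.15% of all windows held it. None of the 10 windows held TAATTA, which 5.29% of all windows did. These are matches of letters, and no binding was measured in these libraries. CpG pairs were most frequent in the window of *Igf1r*, with 48, and in those of *Igfbp3* with 37, *Igfbp7* with 33 and *Igfbp4* with 27, where the median of all windows was 7. The *Igf1* window, which lies inside its GENCODE M21 gene, had 6, and that of *Igfbp5* had 10.

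*Igfbp4*, a secreted binding protein that is cut by the protease PAPP-A, had the most counts of the members in every library, with 34508, 35231 and 44994. Its level was 894, 990 and 1194 CPM in replicates 1, 2 and 3, and it ranked 98 by mean CPM among all genes listed. The gene (ENSMUSG00000017493) lies on chromosome 11, 99041244 to 99054392, plus strand, in the mm10 coordinates of GENCODE M21 that are used throughout. Its highest library was 1.34 times its lowest.
*Igfbp2* (ENSMUSG00000039323, chromosome 1, 72824503 to 72852474, plus strand) had 10451, 9534 and 18526 counts, or 271, 268 and 492 CPM, and ranked 423. It encodes a binding protein with an integrin-binding motif that is abundant in embryonic epithelia and neural tissue. Replicates 1 and 2 lay close together and replicate 3 stood apart from them, at 1.84 times the lowest level. With the length and GC trend removed, the log2 ratios of the 3 libraries were 0.05, -0.19 and 0.14, and replicate 3 no longer stood apart.
*Igfbp5* (ENSMUSG00000026185, chromosome 1, 72857932 to 72874884, minus strand), which encodes a matrix-binding member, had 14902, 7652 and 5507 counts, or 386, 215 and 146 CPM, and ranked 646. Replicate 1 was its highest library, at 2.64 times replicate 3, the lowest. *Igfbp2* and *Igfbp5* are neighbours that face each other on opposite strands, 5457 bases apart with no annotated gene between them, and the ratio of *Igfbp2* to *Igfbp5* per exonic base was 2.28, 4.05 and 10.9 in replicates 1, 2 and 3. In replicate 1 its direction turned with the length used, as *Igfbp2* stood at 296 and *Igfbp5* at 475 RPKM per coding base. In replicates 2 and 3 *Igfbp2* was the higher on both lengths, with 293 against 264 and 537.5 against 180 RPKM per coding base. The length and GC trend was left in all of these values.
*Igfbp3* (ENSMUSG00000020427, chromosome 11, 7206086 to 7213923, minus strand), the main carrier of IGFs in adult blood, had the smallest ratio between libraries of the tested members after TMM scaling, with 1903, 1681 and 1752 counts, or 49.3, 47.2 and 46.5 CPM. Its highest level was 1.06 times its lowest, and 1.19 times when the libraries were scaled by their totals alone, as for *Igfbp4*. After the length and GC trend was removed, its log2 ratios of 0.20, 0.04 and -0.24 spread more than those of *Igfbp4*, *Igf1r* and *Insr*.

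Together the 7 binding proteins held 1601, 1521 and 1880 CPM, a mean of 1667 ± 189 (SD, n = 3). In summed RPKM they stood at 430, 421 and 577. *Igfbp4* made up 47.1%, 53.3% and 46.9% of this sum in replicates 1, 2 and 3. *Igfbp2* made up 34.1%, 34.5% and 46.1%, and *Igfbp5* made up 15.0%, 8.51% and 4.22%. The share of *Igfbp3* was 3.67%, 3.59% and 2.57%, and the other 3 genes held less than 1% between them. Replicate 3 had the largest share of *Igfbp2* and the smallest of *Igfbp5*, with the length and GC trend left in. With that trend removed, the replicate 3 log2 ratio (log2 CPM, prior count 2) moved from 0.87 to 0.14 for *Igfbp2*. For *Igfbp5* it moved from -0.98 to -0.77. Shares with the trend removed were not computed. The shares above are per exonic base. In CPM, without a length, *Igfbp2* held 16.9% of the sum and *Igfbp5* held 24.1% in replicate 1, so *Igfbp5* was the larger there.

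**Figure D2:**
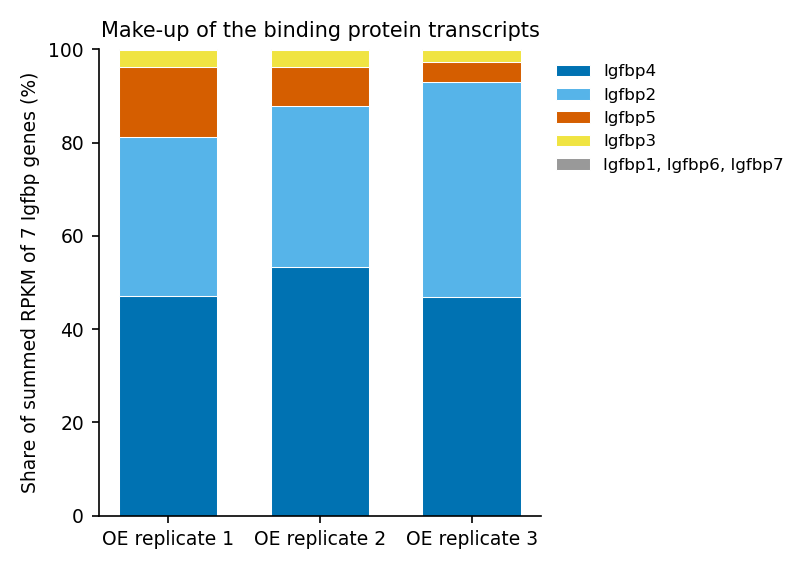
Share of each binding protein gene in the summed RPKM (per exonic base) of the 7 *Igfbp* genes, in percent, with 1 bar per OE library. The length and GC trend was not removed. The *Igfbp5* share runs from 15.0% in replicate 1 to 4.22% in replicate 3, and the grey part for *Igfbp1*, *Igfbp6* and *Igfbp7* is too thin to see.

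Of the low members, *Igfbp1* and *Igfbp6* were near the counting limit, and *Igfbp7* was above it in every library. *Igfbp7* (ENSMUSG00000036256, chromosome 5, 77349240 to 77408041, minus strand) had 20, 23 and 47 counts, or 0.518, 0.646 and 1.25 CPM, with exact Poisson 95% intervals of 0.316 to 0.800, 0.410 to 0.970 and 0.917 to 1.66. It is known from blood vessels, and 8 endothelial markers (*Pecam1*, *Cdh5*, *Kdr*, *Tek*, *Tie1*, *Emcn*, *Cldn5* and *Egfl7*) were all detected in the same libraries, with sums of 347, 398 and 376 CPM. Of its exonic bases, 7.03% overlap *Polr2b* on the opposite strand, and the strand setting of the counting is not given in the sources used here.
*Igfbp6* (ENSMUSG00000023046, chromosome 15, 102144362 to 102149511, plus strand), a member that prefers IGF-II, had 3, 8 and 12 counts. *Igfbp1* (ENSMUSG00000020429, chromosome 11, 7197782 to 7202546, plus strand), known from the liver, had 2, 0 and 2 counts, and 0 counts in replicate 2 still allow up to 0.0843 CPM at the limit of 3 counts, or 0.104 CPM at the upper end of the exact Poisson 95% interval. It lies 3539 bases from *Igfbp3*, which faces it on the opposite strand and was at 47.7 ± 1.45 CPM (SD, n = 3). The hepatocyte genes *Alb*, *Afp*, *Ttr* and *Apoa1* summed to 0.130, 0.0843 and 0.664 CPM. Such intervals and limits cover counting error only.

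*Igf1r* (ENSMUSG00000005533, chromosome 7, 67952827 to 68233668, plus strand), the receptor for IGF-I and IGF-II, had 4966, 4041 and 3416 counts, or 129, 114 and 90.7 CPM. *Insr* (ENSMUSG00000005534, chromosome 8, 3122061 to 3279617, minus strand), the insulin receptor, had 1642, 1252 and 1044 counts, or 42.5, 35.2 and 27.7 CPM. Both were highest in replicate 1 and lowest in replicate 3. With the length and GC trend removed, replicate 3 was instead the highest library for both, with log2 ratios of -0.06, -0.03 and 0.09 for *Igf1r* and -0.01, -0.12 and 0.13 for *Insr*. The ratio of *Igf1r* to *Insr* was 2.48, 2.64 and 2.68 in RPKM.
*Igf1* (ENSMUSG00000020053, chromosome 10, 87858265 to 87937042, plus strand) had 1217, 1578 and 3139 counts, or 31.5, 44.3 and 83.3 CPM. It ran the other way, with replicate 3 at 2.64 times replicate 1. The ratio of *Igf1* to *Igf1r* in RPKM was thus 0.415, 0.662 and 1.56, so per exonic base the ligand was below its receptor in replicates 1 and 2 and above it in replicate 3. Per coding base it was above the receptor in 3 of 3 libraries, at 51.3, 72.1 and 135.5 RPKM against 31.3, 27.6 and 22.1. The placing of *Igf1* among the members depended on which length was used, since 93.8% of its exonic bases are non-coding. Per coding base it was at 86.3 ± 43.9 RPKM and by mean ranked above *Igfbp3* (54.4 ± 1.66) and *Igf1r* (27.0 ± 4.66), all SD with n = 3. In replicate 1 it was below *Igfbp3*, at 51.3 against 56.3 RPKM.

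Whether the libraries differed in a member by more than sampling noise was asked with a chi-square test of its 3 counts (2 degrees of freedom). The test ran on all 17115 genes whose mean count reached 10, with Benjamini-Hochberg adjustment. *Igfbp1* and *Igfbp6* did not reach that count, and of the 8 members tested 7 differed beyond sampling noise at an adjusted p under 0.05. This is near the background, as 81.5% of all tested genes did so. *Igfbp3* was the exception (chi-square 3.38, adjusted p = 0.208), and it passed when the libraries were scaled by their totals alone (adjusted p = 1.52e-06). *Igfbp5* had the largest chi-square, 4642, followed by *Igfbp2* with 3590, *Igfbp4* with 1741, *Igf1* with 1039, *Igf1r* with 251 and *Insr* with 119. The statistic grows with the count, so this is not an order of how far the levels differ. *Igfbp4* stands before *Igf1*, although its highest level was 1.34 times its lowest and that of *Igf1* 2.64 times. *Igfbp7* passed with 14.2 (adjusted p = 0.00117). Without replicate 3, *Igfbp2* (adjusted p = 0.556, mean 278 CPM) and *Igfbp7* (adjusted p = 0.580, mean 0.600 CPM) no longer differed beyond sampling noise, and the share of all tested genes that did was 48.8%.
By direction, 3 of the 8 (*Igf1r*, *Insr* and *Igfbp5*) passed with their highest level in replicate 1, where 33.8% of all tested genes did, and 4 (*Igf1*, *Igfbp2*, *Igfbp4* and *Igfbp7*) passed with their highest level in replicate 3, where 36.4% did. A highest level at least 1.5 times the lowest was also reached by 5 of the 8 members and by 55.6% of all tested genes. The test sets the libraries against sampling noise and has no bearing on genotype. Between libraries the relative SD of CPM was 50.8% for *Igf1*, 49.6% for *Igfbp5* and 3.05% for *Igfbp3*.

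The members cover a wide range of lengths, and the libraries differed by length. *Igfbp7*, *Igfbp2*, *Igfbp3* and *Igfbp4* have 1209, 1847, 3130 and 4416 exonic bases, and *Igfbp5*, *Igf1*, *Insr* and *Igf1r* have 6006, 9904, 13746 and 16791. On log2(CPM + 1), replicate 3 minus the mean of the other 2 was 0.51 for *Igfbp7*, 0.87 for *Igfbp2*, 0.34 for *Igfbp4* and -0.05 for *Igfbp3*, whose sign turned to 0.08 under upper quartile scaling. Among the long genes it was -0.97 for *Igfbp5*, -0.47 for *Insr* and -0.41 for *Igf1r*. *Igf1* was at 1.13, although the median of genes over 8000 bases was -0.56. *Igfbp3*, *Igfbp4* and *Igfbp5* fall between 2000 and 8000 bases, where the median of all genes was -0.05.
A smooth curve for exonic length and GC content was then fitted over 17101 genes and subtracted, using log2 CPM with 2 as the prior count. On this scale the ratio of *Igfbp7* before subtraction was 1.04. The log2 ratio of replicate 3 became 0.14 for *Igfbp2*, 0.17 for *Igfbp4*, 0.21 for *Igfbp7* and -0.24 for *Igfbp3*. *Igf1r* and *Insr* changed sign, to 0.09 and 0.13. *Igfbp5* kept a lower level at -0.77, and *Igf1* moved further from the others, to 1.95. These last values stood at percentiles 11.4 and 99.0 of the tested genes. The cause of the length trend was not tested.

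**Figure D3:**
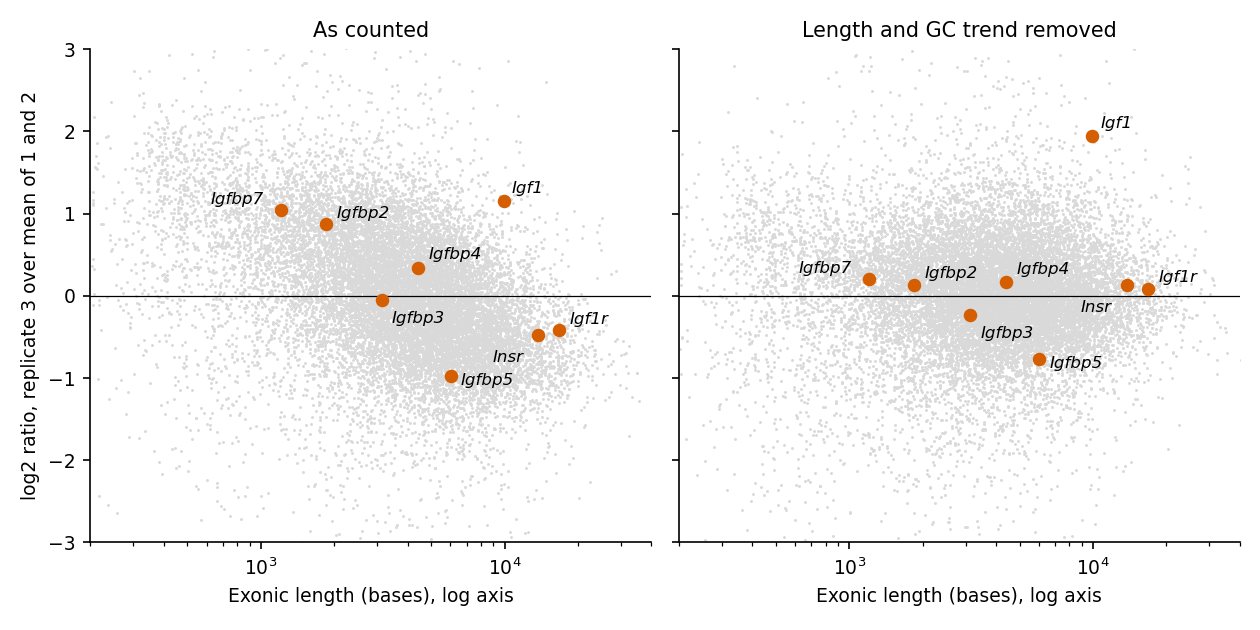
Log2 ratio of replicate 3 over the mean of replicates 1 and 2 (log2 CPM, prior count 2) against exonic length on a log axis, as counted on the left and after the length and GC trend was removed on the right. Grey points are 17101 tested genes and orange points are the 8 members tested; after removal *Igf1* stands at 1.95 and *Igfbp5* at -0.77, while the other members lie between -0.24 and 0.21, and 332 genes on the left and 335 on the right fall outside the axes.

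For *Igfbp5* the departure was largest in replicate 1. Its log2(CPM + 1) there exceeded the mean of the other 2 libraries by 1.12, and after the trend was removed by 0.97, at percentile 94.1 of the tested genes. Replicate 1 was also the library with *Xist* and with the highest neuronal and epithelial sums (273 and 341 CPM). All 9 neuronal genes were highest there. Of the 6 epithelial genes, 4 were highest there and 2 in replicate 3. The part of those cells or of sex in the *Igfbp5* level was not tested. For *Igf1*, replicate 3 was the library with the most pigment cell RNA (155 CPM), and embryonic red cell genes (*Hbb-y*, *Hbb-bh1*, *Hba-x* and *Alas2*) summed to 1940, 3621 and 4257 CPM, with 2 of the 4 highest in replicate 3. Their part in the *Igf1* level was not tested. In bulk tissue, fewer cells of a type and less RNA per cell cannot be told apart.
By Euclidean distance of centred log2(CPM + 1) over the 3 libraries, the genes nearest to *Igf1* among 11854 whose mean count reached 100 were *Klhdc8b* (10.2, 14.4 and 27.7 CPM), *Svbp* (29.7, 42.3 and 79.4 CPM) and *Rps24-ps3* (1.71, 2.73 and 6.00 CPM). With only 3 points such a pattern is common, and 563 genes lay within 0.2 of it. Those nearest to *Igfbp5*, examined after its values were seen, were *Nell2* (17.1, 9.78 and 6.08 CPM), *Zeb2* (20.7, 10.4 and 6.82 CPM) and *Rhpn2* (8.37, 4.69 and 2.73 CPM), with 44 genes within 0.2.

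The rest of the pathway was examined as lists of genes with a set role, 46 genes besides the members. Of these, 43 reached the mean count of 10 and 40 differed between libraries beyond sampling noise, with the highest level in replicate 1 for 27, in replicate 2 for 4 and in replicate 3 for 9. Over all tested genes, 81.5% passed, 33.8% with the highest level in replicate 1 and 36.4% with it in replicate 3, and the counts of each list stand beside these shares. Their median log2 ratio in replicate 3 was -0.48 before and -0.16 after the length and GC trend was removed, against -0.03 and 0.01 over all genes.
Among ligands, *Igf2*, the main fetal growth factor of the family, had 1843, 810 and 106 counts, or 47.8, 22.8 and 2.81 CPM. Of its exonic bases, 62.8% are shared with *Gm49394* on the same strand, and reads on more than 1 gene (6.11%, 6.10% and 6.96% of counted reads) were set aside as ambiguous, so this count is uncertain. *Ins1* had no counts and *Ins2* had 1.
Among receptors, *Igf2r*, which binds IGF-II and takes it into the cell for breakdown, was at 171, 164 and 89.1 CPM. The insulin receptor-related gene *Insrr* was at 2.46, 0.225 and 1.25 CPM, a ratio of 10.9 between libraries. All 4 receptor genes passed the test with the highest level in replicate 1, as 33.8% of all tested genes did. Their median log2 ratio in replicate 3 was -0.45 before and 0.11 after the length and GC trend was removed.

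Proteases and partners of the binding proteins were low. Of 6 genes, 5 passed the test, and the highest by length was *Htra1*, a secreted serine protease, at 0.961 ± 0.381 RPKM (SD, n = 3). The PAPP-A gene *Pappa* was at 0.180 ± 0.0912 RPKM and its inhibitor *Stc2* at 0.698 ± 0.216 RPKM, beside the 232 ± 34.7 RPKM of *Igfbp4*, which PAPP-A cuts (SD, n = 3). *Pappa2* had 74, 6 and 1 counts, and its single count in replicate 3 makes the ratio between libraries imprecise.
Among 9 other genes with an IGFBP-type domain, 8 were tested and 7 passed. The matricellular gene *Ccn1* was the highest per length, at 4.85, 7.10 and 10.3 RPKM. *Igfbpl1* differed most, with 58, 265 and 871 counts, and its log2 ratio in replicate 3 was 2.76 before and 2.43 after the trend was removed.
Of 8 adaptor genes, 8 passed, 7 of them with the highest level in replicate 1, beside 81.5% and 33.8% of all tested genes. Their median log2 ratio in replicate 3 was -0.69 before and -0.36 after the length and GC trend was removed. *Grb10*, an imprinted inhibitor of both receptors, was the highest at 1415, 1180 and 549 CPM, and *Irs4*, an insulin receptor substrate, differed most, at 1.63, 5.45 and 6.64 CPM. Of 18 genes of the PI3K-AKT-mTOR branch, 17 passed, with *Akt2* (165, 162 and 167 CPM) the exception. *Akt1* was the highest of this branch, at 109 ± 4.28 RPKM (SD, n = 3). *Pdpk1*, the kinase that activates AKT, differed most, at 50.6, 34.9 and 19.5 CPM. The list's median log2 ratio in replicate 3 was -0.46 before and -0.01 after the length and GC trend was removed.

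**Figure D4:**
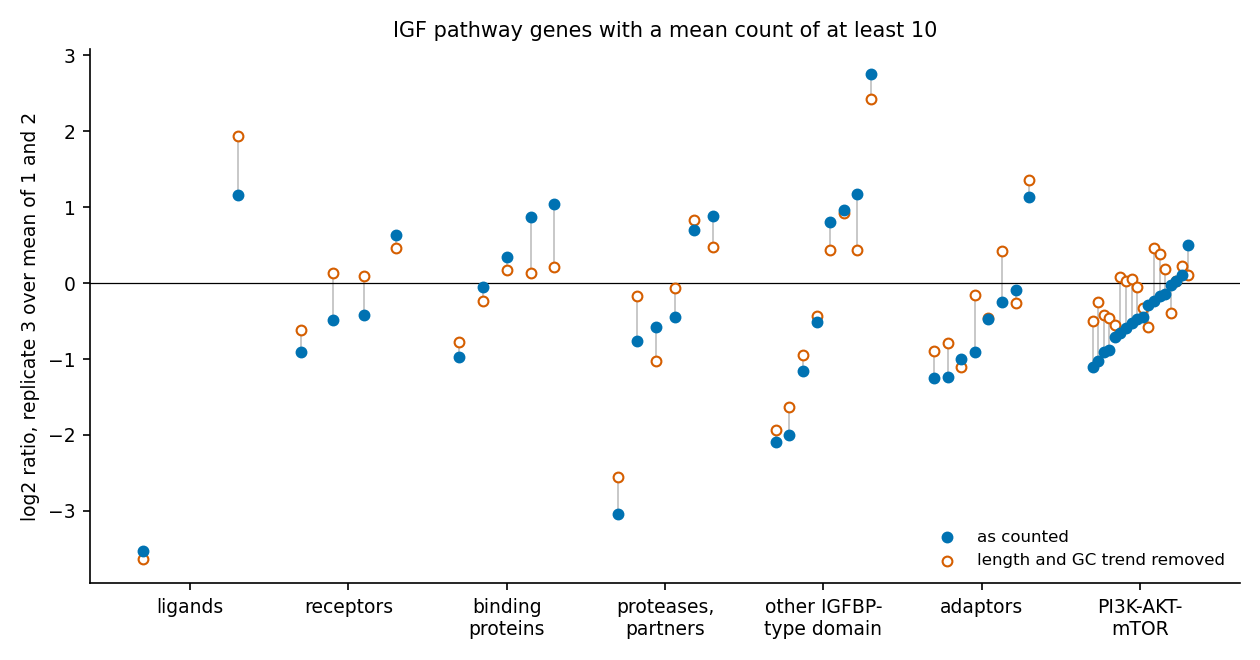
Log2 ratio of replicate 3 over the mean of replicates 1 and 2 for pathway genes whose mean count reached 10, by list, as counted (filled) and after the length and GC trend was removed (open), with a line joining both values of a gene. *Igf1* at 1.95 and *Igf2* at -3.63 are the ends of the ligand pair after removal, and the open points of the PI3K-AKT-mTOR branch lie around 0, with a median of -0.01.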

How the data were processed

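Bulk RNA-Seq of 3 OE samples was used. Reads of both ends were aligned by the authors with STAR 2.7.3a against mm10, and the submitters' processing notes also name FastQC and HTSeq 0.12.4. The deposited values are raw counts per gene, not normalized. The annotation release and the strand setting are not given in the sources used here. Summary entries that name no gene (14.2%, 15.7% and 16.4% of counted reads) were left out of library sizes. Of 55401 identifiers, 55141 matched GENCODE M21.

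Counts were scaled with TMM in edgeR 4.0.16, with factors of 1.06, 1.01 and 0.940. The level that 3 counts stand for, 0.0777, 0.0843 and 0.0796 CPM, was the limit for a gene at 0. With 1 group, no model of differential expression could be fitted. The trend came from mgcv 1.9.3. The chi-square and trend steps were tested on simulated data. DESeq2 1.42.0 gave alternative size factors. Work was done in R 4.3.3 and in Python 3.11.15 with scipy 1.17.1, numpy 2.4.6 and pandas 2.3.3.

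The members and lists were chosen with earlier results of these data known. Named were all members, all ligands and receptors, in each other list the highest per length and the one with the largest ratio between libraries, and the 3 genes nearest to the member with the largest such ratio. P-values measure the departure of the 3 counts of a gene from sampling noise and not the size of the spread between samples. That spread may be technical in part. *Stc2*, *Pappa*, *Akt2* and the neighbours of *Igfbp5* were added after their values were seen. Other scalings, count minimums, lengths and pseudocounts, and leaving out each replicate, were tried. In each of the mesenchymal and red cell marker lists, 1 gene is not reported here and was left out of the sums. RefSeq promoter windows were of GRCm38.p6.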

Additional observations from a re-analysis of the deposited data

How the results depend on the processing

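For 23 results, 155 values were recomputed under other settings, and 142 of them moved by less than 1 SD between replicates or, for counts, by less than 1.5 times. The members beyond sampling noise numbered 7, with 8 when scaled by totals and from 5 (without replicate 3) to 7 when 1 replicate was left out. The share of all genes beyond sampling noise was 81.5%, and 53.4% over every gene with at least 1 count, where more low genes are tested. Leaving out 1 replicate, it ran from 48.8%, without replicate 3, to 77.7%. The summed level of the binding proteins ran from 1610 to 1735 CPM across these fits, and the separate neighbours from 7 to 9. With the longest transcript as length they were 6.

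With the length and GC trend removed, the replicate 3 ratios of *Igf1r* and *Insr* reversed, from -0.41 to 0.087 and from -0.47 to 0.13, and the cause was not tested. Over all settings, 9 further values of single genes moved by more than 1 SD, 5 of them of *Igfbp3*, whose SD was small. No paired analysis was possible because all libraries belong to 1 group. Mean counts under 10 limit what can be said of *Igfbp1* and *Igfbp6*.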
